A study of Mus musculus with 17 samples.

Results

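The nuclear genes of oxidative phosphorylation were examined in lines of C2C12, an established mouse line of myoblasts, the precursors of skeletal muscle fibres. Members were the rows of the count table whose symbol starts with Nduf, Uqcr, Cox4, Cox5, Cox6, Cox7, Cox8 or Atp5, or is Sdha, Sdhb, Sdhc, Sdhd or Cycs. 1 row with -ps in its symbol was left out, which left 91 of the 15062 genes in the table. They comprised 37 genes of complex I, 8 complex I assembly factors, 4 genes of complex II, 8 of complex III, cytochrome c, 16 of complex IV and 17 of complex V. Ndufa4, Ndufa4l2 and Cox7a2l were placed with complex IV.

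RNA was sequenced from 6 groups of C2C12 cells, 17 libraries in all. The control line carried the empty vector, pMSCV. Another group expressed SRF, a transcription factor that binds the serum response element. The remaining groups expressed fusions whose names join SRF to a second gene: SRF-FOXO1, SRF-RELA, SRF-PDGFRB and SRF-ICA1L. All groups share the C2C12 background. There were 3 libraries in each group except SRF-PDGFRB, which had 2. The labels say neither that the libraries of a group came from separate cultures nor whether a line was a clone, so p-values measure the spread between these libraries, which may be technical.

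Oxidative phosphorylation is the last stage of respiration in the inner mitochondrial membrane. Complexes I and II take electrons from NADH and succinate, complex III passes them to the carrier cytochrome c, and complex IV hands them to oxygen. Complexes I, III and IV pump protons, and complex V, the ATP synthase, uses the proton gradient to make ATP. Most subunits are encoded in the nucleus and are shown here. The subunits encoded in mitochondrial DNA were not analysed here. Skeletal muscle relies on this machinery and has its own isoforms of several complex IV subunits.

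Total counts were 20901442 to 23543734 per library, and the 91 genes held between 0.776% and 1.04% of them. At least 10 counts were present in every library for 87 of the 91 genes. The exceptions were Cox6a2, Cox7a1, Cox7b2 and Ndufa4l2. All 91 entered the tests, and every row of the deposited table had at least 10 counts in at least 3 libraries. Markers of the cell type differed between libraries, with ranges that overlapped between several lines. The 5 myoblast markers (Myod1, Myf5, Des, Cdh15 and Msc) summed to 910 to 1263 CPM (counts scaled to library size) in pMSCV, 500.0 to 1003 in SRF, 286 to 763 in SRF-ICA1L, 220 to 496 in SRF-RELA and 127 to 168 in SRF-FOXO1. The SRF-PDGFRB libraries stood far apart, at 67.8 and 1449 CPM. Des was the highest of the 5 markers in every library, and Msc was at most 1.75 CPM. A list of 10 genes of differentiating muscle summed to 205 to 391 CPM in pMSCV, 47.9 to 136 in SRF, 54.1 to 92.9 in SRF-FOXO1, 73.3 to 129 in SRF-ICA1L, 45.1 to 374 in SRF-RELA and 17.2 and 812 in SRF-PDGFRB. Of 8 markers of other cell types, 2 had a row, Cdh5 and Cd68, and these summed to between 2.05 and 6.08 CPM. In bulk RNA, fewer cells of a type and less RNA per cell cannot be told apart.

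The promoters of the members were searched for motifs long associated with nuclear respiratory genes, in the RefSeq window from 250 bases before to 50 bases after the annotated start (GRCm38.p6). A window was matched for 76 of the 91 members, and each motif was searched on both strands. A gene was counted once if the window of any of its listed starts held the motif. The comparison set was all 27025 genes with a window, not the 15062 genes of the count table. The NRF-1 motif GCATGCGC, bound by nuclear respiratory factor 1, was present in 13 of the 76 members (17.1%), and in 3.05% of all 27025 genes. The core CCGGAAG, which GABP shares with other ETS factors, was present in 19 (25%), against 9.93% of the 27025 genes. The YY1 motif AAGATGGCG was found in 8 (10.5%, against 1.64% of the 27025 genes) and the CRE TGACGTCA in 5 (6.58%, against 2.03%). The CArG box, the DNA element that SRF binds, matched none of the 76 members and 1.81% of the 27025 genes. Below are the windows of 5 members described in the results: Atp5d and Ndufs7, which had the lowest p after Uqcrq in SRF-FOXO1 against pMSCV, and Ndufb7, Cycs and Ndufaf4, the most variable members above 10 CPM. Uqcrq was not among the 76. Matched motifs are in capitals and the remaining bases in lower case. Atp5d, shown from the first of its 2 listed starts, held none of the motifs in this window. The others show the YY1 motif in Ndufs7 at bases 275 to 283, the ETS core in Ndufb7 at bases 231 to 237, the CRE and NRF-1 motifs in Cycs at bases 82 to 89 and 191 to 198, and 2 overlapping NRF-1 matches, 1 on each strand, at bases 138 to 147 of Ndufaf4, with another match at 252 to 259. A match is a string of letters and no evidence of binding.
Atp5d, chr10:80142025-80142324, plus strand: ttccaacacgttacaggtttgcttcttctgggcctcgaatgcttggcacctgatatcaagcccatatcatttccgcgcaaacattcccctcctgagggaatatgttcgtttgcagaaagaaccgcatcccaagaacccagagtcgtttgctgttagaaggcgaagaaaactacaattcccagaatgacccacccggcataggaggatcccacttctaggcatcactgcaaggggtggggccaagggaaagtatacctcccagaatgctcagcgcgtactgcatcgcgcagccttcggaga
Ndufs7, chr10:80249199-80249498, plus strand: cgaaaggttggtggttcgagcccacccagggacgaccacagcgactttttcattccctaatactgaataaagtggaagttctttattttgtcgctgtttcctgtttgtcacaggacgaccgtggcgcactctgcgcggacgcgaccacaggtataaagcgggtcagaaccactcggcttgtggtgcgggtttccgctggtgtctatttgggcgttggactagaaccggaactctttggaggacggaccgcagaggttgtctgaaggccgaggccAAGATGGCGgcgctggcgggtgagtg
Ndufb7, chr8:83566508-83566807, plus strand: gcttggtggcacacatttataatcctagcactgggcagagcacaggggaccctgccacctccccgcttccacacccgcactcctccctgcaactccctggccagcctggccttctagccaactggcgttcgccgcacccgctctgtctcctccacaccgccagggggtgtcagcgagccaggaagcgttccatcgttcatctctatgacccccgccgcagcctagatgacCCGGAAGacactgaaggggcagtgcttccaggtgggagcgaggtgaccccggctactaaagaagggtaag
Cycs, chr6:50566520-50566819, minus strand: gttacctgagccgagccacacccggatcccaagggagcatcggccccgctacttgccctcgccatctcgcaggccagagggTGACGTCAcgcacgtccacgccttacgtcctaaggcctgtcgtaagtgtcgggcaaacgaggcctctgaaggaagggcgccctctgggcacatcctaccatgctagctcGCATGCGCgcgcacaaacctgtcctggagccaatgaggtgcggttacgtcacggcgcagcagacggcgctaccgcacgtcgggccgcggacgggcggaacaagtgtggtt
Ndufaf4, chr4:24897833-24898132, plus strand: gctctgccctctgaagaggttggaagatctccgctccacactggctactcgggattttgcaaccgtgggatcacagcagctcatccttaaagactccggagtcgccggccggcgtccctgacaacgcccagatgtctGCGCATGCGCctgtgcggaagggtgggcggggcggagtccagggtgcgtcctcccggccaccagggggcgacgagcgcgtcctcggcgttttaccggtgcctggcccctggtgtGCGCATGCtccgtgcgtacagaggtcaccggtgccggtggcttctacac

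Median levels differed by complex. Per kb of merged exon, the median level was 79.1 CPM per kb for complex IV, 62.0 for complex III, 42.7 for complex II, 37.8 for complex V and 35.1 for complex I, against 6.46 for the 8 assembly factors, which build the enzyme and are not part of it. Ranges overlapped, at 0.942 to 81.0 CPM per kb in complex I, 0.323 to 240 in complex IV and 9.05 to 371 in complex V. Differences between complexes were not tested. Over all 91 genes the median was 37.4 CPM per kb, against 4.84 for all genes. The highest was Atp5b, the catalytic beta subunit of the ATP synthase, at 371 CPM per kb, followed among complex IV genes by Cox8a at 240 and Cox6a1 at 193. The isoform pairs of complex IV were uneven. Cox6a1 and Cox7a2, the widely expressed isoforms, averaged 135 and 50.5 CPM over the 17 libraries, whereas Cox6a2 and Cox7a1, the heart and skeletal muscle isoforms, averaged 0.752 and 0.628 CPM. Ndufa4 averaged 113 CPM and its paralogue Ndufa4l2 0.354 CPM.

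**Figure D1:**
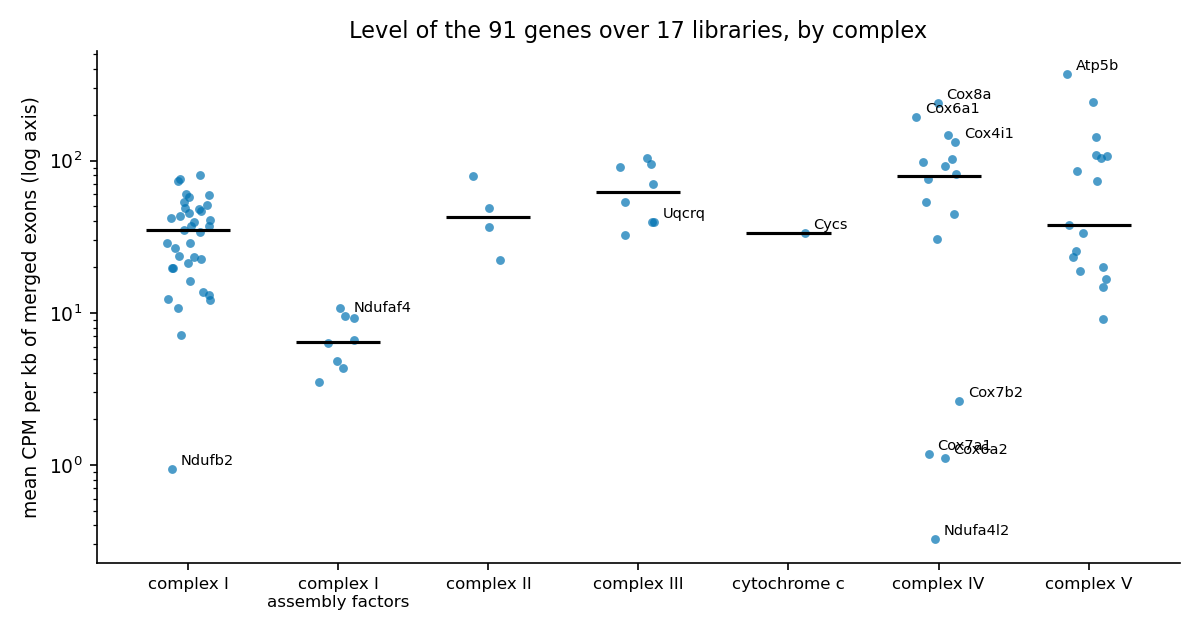
Mean CPM per kb of merged exons over the 17 libraries (log axis) for each of the 91 genes, by complex; horizontal bars are medians. Atp5b is the highest at 371 CPM per kb, and the muscle isoforms Cox6a2 and Cox7a1 lie with Cox7b2 and Ndufa4l2 below the rest of complex IV.

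The members varied little between libraries. The SD of log2 CPM over the 17 libraries had a median of 0.19 for the 70 members with a mean of 20 to 200 CPM, against 0.27 for the 6819 genes of the table in that window. Ndufaf4 was the most variable member above 10 CPM, with an SD of 0.67, followed by Cycs at 0.46 and Ndufb7 at 0.41. The steadiest were Uqcr11 at 0.09, Atp5j2 at 0.10 and Sdhc at 0.10. Cox7a2l, a factor in the assembly of respiratory supercomplexes, owed its spread to 1 library: it reached 263 CPM in pMSCV replicate 2 and 104 to 148 CPM in the other libraries.

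The question set by the series is how the fusion lines differ from the controls. Against pMSCV, member medians were below 0 in every line, on a scale of log2 fold change on which all genes had medians between -0.02 and 0.01. The median was -0.23 in SRF-FOXO1, which corresponds to a level 14.7% below pMSCV, and -0.16 in SRF-PDGFRB, -0.12 in SRF-ICA1L, -0.11 in SRF and -0.09 in SRF-RELA. Lower estimates were held by 74, 74, 76, 67 and 68 of the 91 members in that order. These 5 comparisons share the same 3 pMSCV libraries, so they do not count as 5 separate observations. Against SRF the medians were -0.10 in SRF-FOXO1, -0.04 in SRF-PDGFRB, -0.03 in SRF-ICA1L and -0.01 in SRF-RELA. Leaving out 1 library turned the sign in SRF-ICA1L (0.01 without SRF replicate 1) and in SRF-RELA (0.02 without SRF replicate 1, 0.06 and 0.05 without SRF-RELA replicates 2 and 3), and in SRF-PDGFRB the median was -0.001 without SRF replicate 1 and -0.12 without SRF-PDGFRB replicate 2. The libraries within a line did not lie together. The median shift of the members from the pMSCV mean was 0.00, 0.04 and -0.05 in the pMSCV libraries, -0.14, -0.24 and -0.27 in SRF-FOXO1 and -0.01, -0.16 and -0.10 in SRF. It was -0.04, -0.17 and -0.15 in SRF-ICA1L, -0.22 and -0.07 in SRF-PDGFRB, and 0.11, -0.19 and -0.15 in SRF-RELA. SRF-FOXO1 was the line whose 3 libraries were all below -0.1, and SRF-RELA ranged from the highest library of all to one below every control.

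**Figure D2:**
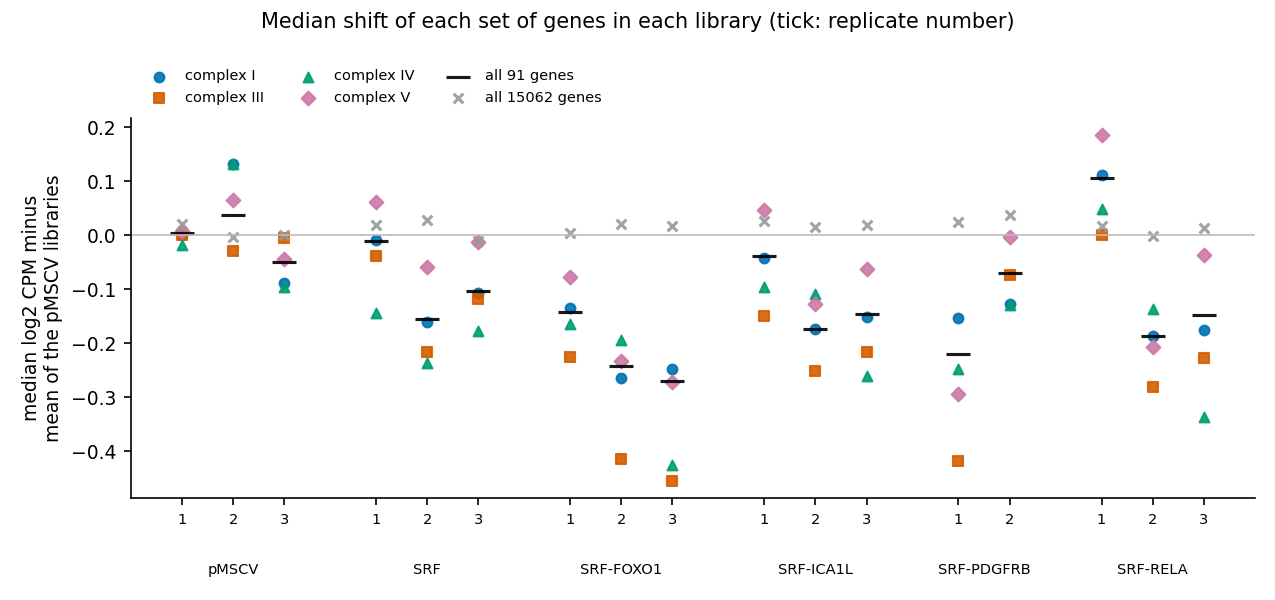
Median log2 CPM of each set of genes in each of the 17 libraries, minus the mean of the pMSCV libraries; symbols stand for complexes I, III, IV and V, black dashes for all 91 genes and grey crosses for all 15062 genes. The 91 genes sit at -0.14, -0.24 and -0.27 in SRF-FOXO1 while the grey crosses stay close to 0 in every library.

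In edgeR's fit over all 17 libraries without replicate number, 1 member was called in the 9 comparisons, in SRF-FOXO1 against pMSCV: Uqcrq, a small subunit of complex III (chromosome 11, 53427922 to 53430831, minus strand, GRCm38). It had 82.4, 88.6 and 101 CPM in the pMSCV libraries and 80.6, 73.6 and 82.5 in SRF. It had 56.1, 64.1 and 55.2 CPM in SRF-FOXO1, 69.4, 73.4 and 70.0 in SRF-ICA1L, 58.7 and 73.8 in SRF-PDGFRB, and 75.7, 62.8 and 63.8 in SRF-RELA. The SRF-FOXO1 libraries all lay below the pMSCV and SRF libraries, and every library of the 4 fusion lines lay below the lowest pMSCV library. Uqcrq fell by 35.5% in SRF-FOXO1 (log2 fold change -0.63, SE 0.13, adjusted p = 0.0433 in edgeR, Benjamini-Hochberg over all genes). It was 1 of the 91 members, while 0.352% of all genes were called lower and 0 members, against 0.359% of all genes, were called higher. The call depended on single libraries. The adjusted p of edgeR's test reached 0.106 without pMSCV replicate 3, 0.114 without pMSCV replicate 1, 0.105 without SRF-FOXO1 replicate 1 and 0.201 without SRF-FOXO1 replicate 3, with log2 fold changes from -0.55 to -0.70, and it was 0.147 with only these 2 groups in the fit. In DESeq2 the adjusted p was 0.00029.

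Atp5d, the delta subunit of the ATP synthase (chromosome 10, 80138632 to 80145818), and Ndufs7, an iron-sulphur subunit of complex I next to the quinone site (chromosome 10, 80249121 to 80256794), came next in the same comparison and did not pass. Atp5d had 266, 240 and 262 CPM in pMSCV, 171, 182 and 145 in SRF-FOXO1 and 241, 203 and 207 in SRF. It had 218, 204 and 195 CPM in SRF-ICA1L, 184 and 193 in SRF-PDGFRB and 233, 171 and 189 in SRF-RELA. Every fusion library was below the lowest pMSCV library, and the SRF-FOXO1 libraries did not overlap SRF. The Atp5d log2 fold change in SRF-FOXO1 against pMSCV was -0.63 (SE 0.14, adjusted p = 0.0501, edgeR, quasi-likelihood). Exons of Atp5d overlap those of Cbarp on the opposite strand, and whether counting used the strand is not given in the sources used here.

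For Ndufs7 the pMSCV libraries had 53.0, 60.0 and 49.6 CPM, SRF 44.6, 37.7 and 45.5, and SRF-FOXO1 36.5, 29.7 and 31.6. SRF-ICA1L had 37.8, 34.9 and 38.6 CPM, SRF-PDGFRB 30.4 and 44.0, and SRF-RELA 44.6, 30.2 and 35.6. All libraries that expressed SRF or a fusion were below all pMSCV libraries. The Ndufs7 log2 fold change in SRF-FOXO1 against pMSCV was -0.73 (SE 0.17, adjusted p = 0.0531, edgeR, quasi-likelihood). DESeq2 called 6 members lower in this comparison, Uqcrq, Atp5d, Ndufs7, Ndufa12, Uqcrfs1 and Cox4i1, which is 6.59% of the 91 against 4.66% of all genes it called lower.

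At an unadjusted p under 0.05 in edgeR's test, more members were lower than higher against pMSCV in every line. In SRF-FOXO1, 19 of the 91 were lower than pMSCV, against 10.6% of all genes, and 1 was higher, against 10.3%. The total of 20 became 12 when SRF-FOXO1 replicate 2 was left out and 10 when SRF-FOXO1 replicate 3 was. The 3 SRF-FOXO1 libraries all lay below the 3 pMSCV libraries for 33 members (36.3%), against 11.6% of all genes, and above them for 3 (3.3%), against 11.4%. This count is not given for the other lines, so it does not set SRF-FOXO1 apart from them. The medians by complex were -0.35 for complex III, -0.23 for complex IV, -0.22 for complexes I and V, -0.20 for the assembly factors and -0.16 for complex II. In complex III, which passes electrons to cytochrome c, the Rieske iron-sulphur protein Uqcrfs1 had 83.6 ± 5.2 CPM in pMSCV and 60.6 ± 9.8 in SRF-FOXO1 (SD, n = 3 each; log2 fold change -0.46, SE 0.15, edgeR adjusted p = 0.104). The core protein Uqcrc1 had 154 ± 3.4 and 115 ± 13 CPM (SD, n = 3 each). Sdha, the flavoprotein of complex II, had a higher mean in SRF-FOXO1, with 191 ± 3.1 CPM in pMSCV and 218 ± 20 in SRF-FOXO1 (SD, n = 3 each). The myoblast markers summed to 127 to 168 CPM in these same SRF-FOXO1 libraries against 910 to 1263 in pMSCV, with all 5 markers lower at an unadjusted p under 0.05, and their part in the members' values was not tested.

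**Figure D3:**
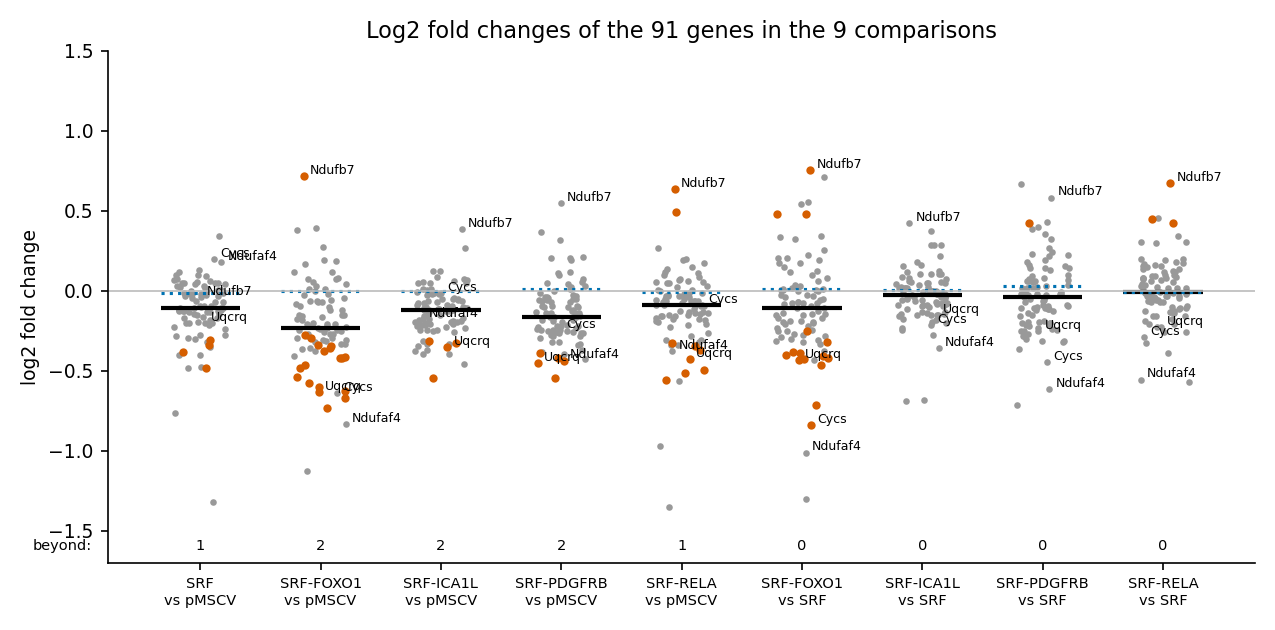
Log2 fold change of each of the 91 genes in the 9 comparisons; orange points have an unadjusted p under 0.05 in edgeR's test, black bars are member medians, dotted blue lines the medians of all genes, and the numbers at the foot count members beyond 1.5 in size. The black bar is lowest, at -0.23, in SRF-FOXO1 against pMSCV, where 19 orange points lie below 0 and 1 above.

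Ndufb7, a subunit of the membrane arm of complex I (chromosome 8, 83566671 to 83571626, plus strand), was the member that was higher in SRF-FOXO1 than in pMSCV at an unadjusted p under 0.05, among 17 members with a higher estimate. It had 78.3, 97.6 and 67.3 CPM in pMSCV and 97.3, 77.7 and 62.0 in SRF. It had 130, 136 and 134 CPM in SRF-FOXO1, 110, 122 and 85.9 in SRF-ICA1L, 156 and 81.1 in SRF-PDGFRB, and 158, 119 and 101 in SRF-RELA. The SRF-FOXO1 and SRF-RELA libraries lay above all libraries of both controls, and the SRF-ICA1L and SRF-PDGFRB libraries overlapped them. The log2 fold change against pMSCV was 0.72 (SE 0.25, adjusted p = 0.133, edgeR, quasi-likelihood) in SRF-FOXO1 and 0.63 (SE 0.25, adjusted p = 0.537) in SRF-RELA. Against SRF it was 0.75 in SRF-FOXO1 (adjusted p = 0.194) and 0.67 in SRF-RELA (adjusted p = 0.975). None of these passed in the fit without replicate number.

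**Figure D4:**
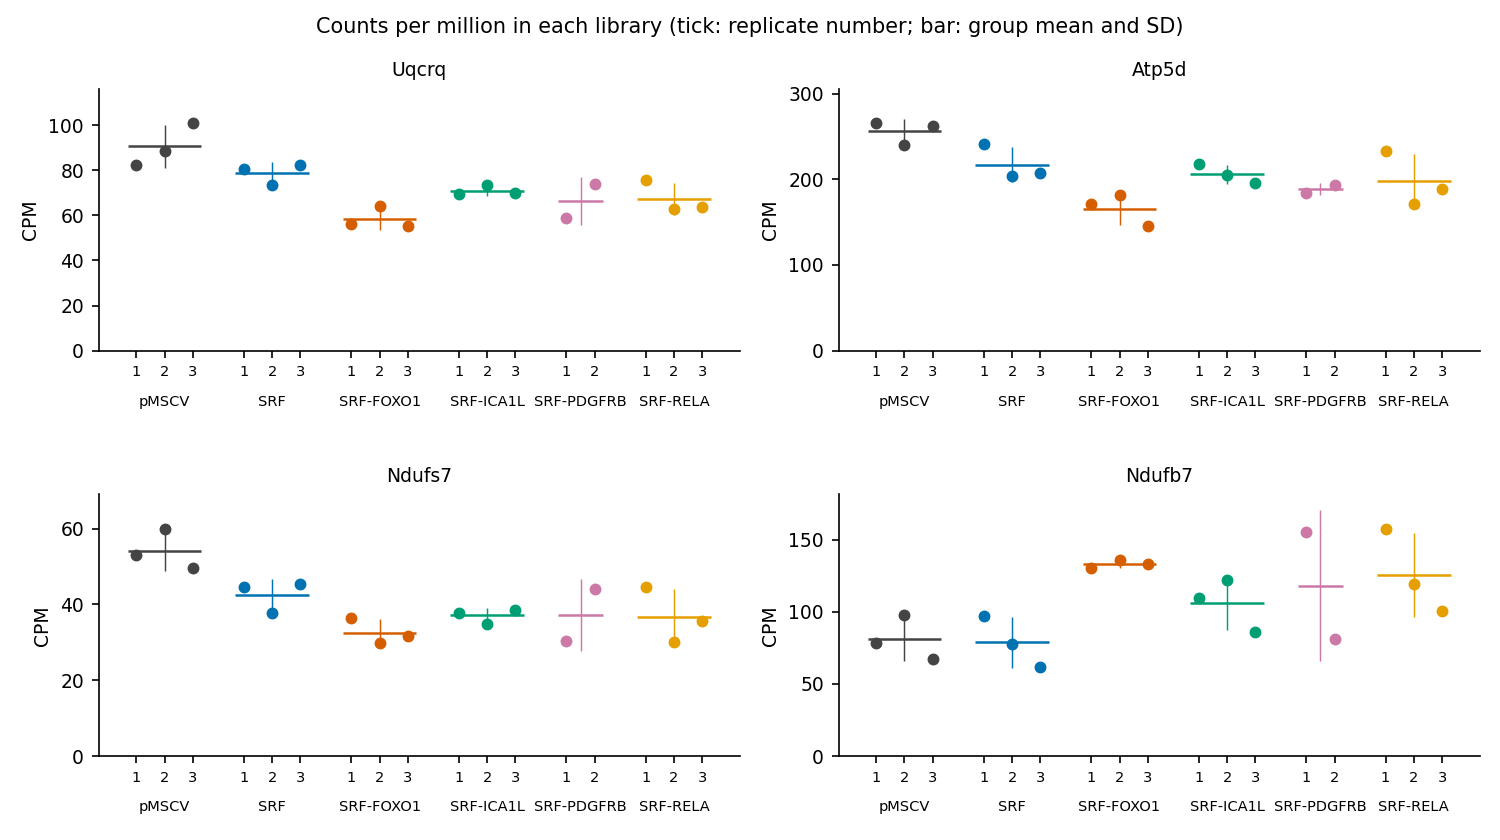
CPM of Uqcrq, Atp5d, Ndufs7 and Ndufb7 in each of the 17 libraries (ticks give the replicate number); horizontal bars are group means and vertical lines 1 SD. The first 3 genes are lowest on average in SRF-FOXO1, at 55.2 to 64.1 CPM for Uqcrq, whereas Ndufb7 sits at 130 to 136 CPM there and at 62.0 to 97.6 CPM in both controls.

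In SRF-RELA, 0 members were called against pMSCV by edgeR's test and 0 by DESeq2, where 0% and 0.725% of all genes were called. At an unadjusted p under 0.05, 8 were lower and 2 higher, against 4.17% and 3.88% of all genes. The same-numbered libraries of SRF-RELA, SRF-ICA1L, SRF and pMSCV deviated together, so replicate number was also fitted as a block in these 12 libraries. With the block, 3 members were called in SRF-RELA against pMSCV (3.3%, against 6.07% of all genes). In the same 12 libraries without the block 0 members were called, and the share of all genes is not given for that fit. With the block in all 17 libraries, 0 members and 0% of all genes were called. That fit also puts SRF-FOXO1 and SRF-PDGFRB, which were not paired with these groups, into the numbering. Ndufb7 rose by 54.5% (log2 fold change 0.63, SE 0.14, adjusted p = 0.0262, edgeR, quasi-likelihood), with 2.85% of all genes called higher. Ndufs7 fell by 32.7% (log2 fold change -0.57, SE 0.14, adjusted p = 0.0417) and Uqcr10, a small subunit of complex III, fell by 29.1% (log2 fold change -0.50, SE 0.13, adjusted p = 0.0488), with 3.21% of all genes called lower. Uqcr10 had 43.2, 50.1 and 62.3 CPM in pMSCV and 37.9, 32.3 and 38.9 in SRF-RELA, which do not overlap. In the same fit all 5 myoblast markers were called lower in SRF-RELA, and their part in these values was not tested.

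The other lines gave no call. For SRF against pMSCV, edgeR's test and DESeq2 both called 0 members, where they called 0.00664% and 0.0266% of all genes. At an unadjusted p under 0.05, 0 members were higher, against 180 of the 15062 genes, and 5 were lower, against 2.14% of all genes. Among these was Ndufa7, an accessory subunit of complex I, with 62.2 ± 9.9 CPM in pMSCV and 49.1 ± 1.6 in SRF (SD, n = 3 each; log2 fold change -0.34, SE 0.13, edgeR adjusted p = 0.99). Another was Cox6a1, with 157 ± 4.1 and 120 ± 9.7 CPM (SD, n = 3 each; log2 fold change -0.38, SE 0.15, edgeR adjusted p = 0.99). For SRF-ICA1L against pMSCV both tools called 0 members, against 0% of all genes in edgeR's test and 0.299% in DESeq2. At an unadjusted p under 0.05, 6 members were lower, against 3.27% of all genes, and 0 higher, against 445 of the 15062 genes. Ndufs7 had the lowest p with a log2 fold change of -0.55 (SE 0.17, edgeR adjusted p = 0.662). With the block in 12 libraries the count of members called stayed at 0, although 2.81% of all genes were called. For SRF-PDGFRB against pMSCV both tools called 0 members, against 0.0199% of all genes in edgeR's test and 0.466% in DESeq2. At an unadjusted p under 0.05, 5 members were lower, against 3.11% of all genes, and 0 higher, against 691 of the 15062 genes. Uqcrq had the lowest p there (log2 fold change -0.45, SE 0.15, edgeR adjusted p = 0.515). In SRF-PDGFRB replicate 1, which had 67.8 CPM of summed myoblast markers, the median shift of the members was -0.22, and in replicate 2, which had 1449 CPM, it was -0.07. Whether the markers and the members are linked was not tested.

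Against SRF, edgeR's test called 0 members in each of the 4 fusion lines. In SRF-FOXO1, where 0.00664% of all genes were called, 12 members were lower and 3 higher at an unadjusted p under 0.05, against 8.11% and 11.1% of all genes. Uqcrq and Ndufb3, a membrane-arm subunit of complex I, had the lowest p. Ndufb3 had 32.7 ± 2.0 CPM in SRF, 45.6 ± 6.1 in SRF-FOXO1 and 43.8 ± 5.0 in SRF-RELA (SD, n = 3 each), but 40.5 ± 5.2 in pMSCV (SD, n = 3). Its log2 fold change in SRF-FOXO1 against SRF was 0.48 (SE 0.14, edgeR adjusted p = 0.181). DESeq2 called 2 members here, Ndufb3 and Uqcrq, against 3.97% of all genes. In SRF-PDGFRB and SRF-RELA against SRF, 1 and 3 members, all higher, had an unadjusted p under 0.05, against 3.52% and 2.51% of all genes called higher by that rule, and DESeq2 called 0 in both, against 0.386% and 0.0599% of all genes. Adjusted calls of edgeR's test covered 0.0531% and 0.00664% of all genes in these comparisons. In SRF-ICA1L against SRF no member had an unadjusted p under 0.05, against 1.56% of all genes, and DESeq2 and edgeR's test both called 0 members, against 0.0133% of all genes in DESeq2. A single test for any difference among the 6 groups called 0 members and 0.0797% of all genes in edgeR, with 5 members at an unadjusted p under 0.05, against 8.68% of all genes. DESeq2 called 3 in this test (Uqcrq, Atp5d and Ndufs7), against 4.22% of all genes, and edgeR with the block in 17 libraries called 0, against 0.365%. A test for any difference among the 4 groups of the 12 paired libraries, with the block in edgeR, called 1 member (Ndufb7, adjusted p = 0.0459), against 3.43% of all genes.

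Cycs, which encodes the electron carrier cytochrome c, and Ndufaf4, an assembly factor of complex I, differed by replicate number within pMSCV, SRF, SRF-ICA1L and SRF-RELA. Cycs had 149, 71.6 and 147 CPM in pMSCV, 144, 123 and 155 in SRF, 147, 77.7 and 139 in SRF-ICA1L and 138, 69.8 and 138 in SRF-RELA. In each of these 4 groups replicate 2 was the lowest. Cycs had 72.1, 86.3 and 78.1 CPM in SRF-FOXO1 and 75.7 and 131 in SRF-PDGFRB. The SRF-FOXO1 libraries were close to the replicate 2 libraries of pMSCV, SRF-ICA1L and SRF-RELA, and they overlapped pMSCV while lying below all SRF libraries. Ndufaf4 had 62.7, 18.9 and 48.5 CPM in pMSCV, 51.8, 37.8 and 57.8 in SRF, 50.4, 17.1 and 47.3 in SRF-ICA1L and 40.1, 15.3 and 45.0 in SRF-RELA. It had 26.1, 21.0 and 26.0 CPM in SRF-FOXO1 and 21.6 and 42.6 in SRF-PDGFRB. Its highest library was 4.10 times its lowest, the widest range among members with at least 10 CPM. In SRF-FOXO1, replicate 2 was the highest library for Cycs and the lowest for Ndufaf4. In SRF-PDGFRB, replicate 2 was the higher library for both genes.

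Against SRF, in SRF-FOXO1 the log2 fold change was -0.84 for Cycs (SE 0.33, adjusted p = 0.219, edgeR, quasi-likelihood) and -1.01 for Ndufaf4 (SE 0.49, adjusted p = 0.274). The same-numbered libraries of these 2 groups also deviated together. Fitted on these 6 libraries alone without replicate number, edgeR's test called both, Ndufaf4 with a log2 fold change of -0.997 (SE 0.19, adjusted p = 0.0485) and Cycs with -0.82 (SE 0.14, adjusted p = 0.0454), and 1.51% of all genes were called lower. Adding the block to this fit left Ndufaf4 called (log2 fold change -0.98, SE 0.13, adjusted p = 0.0446), against 0.817% of all genes called lower, and the adjusted p of Cycs was 0.0506. Against pMSCV the log2 fold changes in SRF-FOXO1 were -0.64 for Cycs (SE 0.33, adjusted p = 0.291) and -0.83 for Ndufaf4 (SE 0.49, adjusted p = 0.351), both within the spread of the pMSCV libraries.

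**Figure D5:**
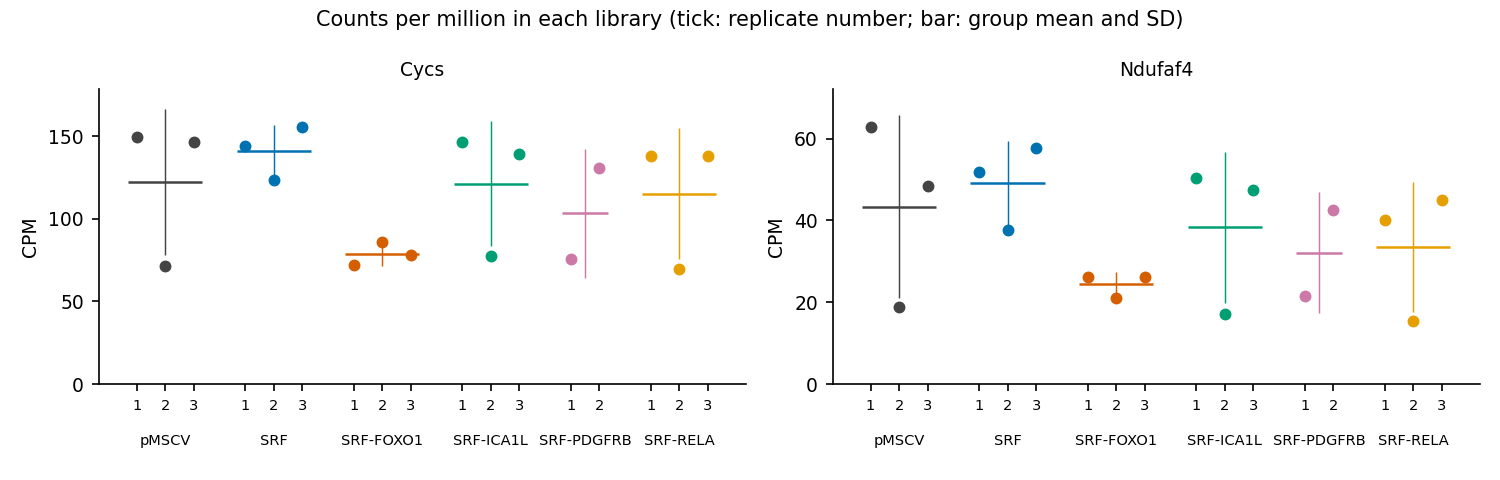
CPM of Cycs and Ndufaf4 in each of the 17 libraries (ticks give the replicate number); horizontal bars are group means and vertical lines 1 SD. Replicate 2 is the lowest library of both controls, of SRF-ICA1L and of SRF-RELA for both genes, and the 3 SRF-FOXO1 libraries lie close together at 72.1 to 86.3 CPM for Cycs.

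The 12 paired libraries were chosen because their same-numbered libraries deviated together in these data. Calls for replicate number therefore describe this set and cannot test whether such an effect exists. Over these 12 libraries, edgeR's test on replicate number called 25 of the 91 members (27.5%), against 51.2% of all genes. By complex these were 11 of 37 in complex I, 3 of 8 assembly factors, 1 of 4 in complex II, 1 of 8 in complex III, cytochrome c, 3 of 16 in complex IV and 5 of 17 in complex V. Ndufaf4 had the lowest adjusted p (0.00137) and Cycs the next (0.00221). Of the 25, 15 were lowest in replicate 2 and 19 highest in replicate 1. Of all 91 members, called or not, 42 were lowest in replicate 2 and 60 highest in replicate 1. The median share of a member's variance that went with replicate number was 43.6%, and 21.6% went with group, against 49.6% and 19.5% for all genes. The shares that would arise without any effect were not computed.

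The muscle isoforms of complex IV were near the limit of detection. Cox6a2 had 0.461, 3.79 and 1.87 CPM in pMSCV and at most 1.05 CPM in any library of the other 5 groups. The values in 2 of the 3 pMSCV libraries were therefore the highest of all, and the pMSCV library with the lowest overlapped the other groups. Exons of Cox6a2 overlap those of Itgad on the opposite strand. Cox7a1 ranged from 0.0933 to 1.22 CPM. Among the genes of subunit c, the rotor ring of the ATP synthase, group means in pMSCV and SRF-FOXO1 were 86.5 ± 19 and 71.8 ± 3.2 CPM for Atp5g1, 205 ± 57 and 166 ± 13 for Atp5g2 and 186 ± 9.6 and 160 ± 34 for Atp5g3 (SD, n = 3 each). None of these 3 passed edgeR's test in any of the 9 comparisons of groups.

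Other genes of mitochondrial metabolism gave no call in the fit over all 17 libraries or with the block in 12. In SRF-FOXO1 against pMSCV the median log2 fold change was -0.09 for the 17 genes of the TCA cycle and pyruvate dehydrogenase, -0.18 for the 37 assembly factors outside the rule that had a row, -0.09 for the 13 regulators of mitochondrial biogenesis and -0.40 for the 10 mitochondrial carriers and pores. At an unadjusted p under 0.05, 2, 6, 4 and 3 of these were lower, against 10.6% of all genes, and 1, 1, 0 and 0 higher, against 10.3%, in that order. Cs, citrate synthase, had a log2 fold change of -0.70 (SE 0.20, adjusted p = 0.0845, edgeR, quasi-likelihood). Tfam, which packages and transcribes mitochondrial DNA, had -0.59 (SE 0.15, adjusted p = 0.062). Esrra, a nuclear receptor that acts on these genes, had -0.40 (SE 0.17, adjusted p = 0.193), and the coactivator Ppargc1a had 0.32 (SE 0.98, adjusted p = 0.881).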

How the data were processed

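Raw gene counts deposited by the authors, whole numbers per gene and library in 1 table, were the only values used. Per the submitters' processing notes, the tools were FastQC 0.11.8, Trimmomatic 0.39, HISAT2, featureCounts and Subread 2.0.0, with the GRCm38 build, and per the labels the libraries came from a stranded kit for polyadenylated RNA. The annotation and the strand setting of counting are not given in the sources used here, and 34 of the 91 members have exons that overlap another annotated gene, 31 of them on the opposite strand. Coordinates come from GENCODE (GRCm38).

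Groups and replicate numbers came from the titles. All 17 libraries entered 1 quasi-likelihood fit in edgeR 4.0.16 (R 4.3.3) with TMM factors, and p-values were adjusted over 15062 genes by Benjamini-Hochberg with a threshold of 0.05. CPM use TMM library sizes. Log2 CPM have a prior count of 2. The test was run on simulated counts of independent libraries with changes of at least 2-fold. That check does not cover smaller changes or the correlation of same-numbered libraries described below. DESeq2 1.42.0, RLE factors, a filter of 1 CPM in 3 libraries, fits of 2 groups, a replicate block and leaving out each library were alternatives.

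Same-numbered libraries of SRF-RELA, SRF-ICA1L, SRF and pMSCV had correlated deviations from their group means over genes (r from 0.39 to 0.79), against at most 0.11 for different numbers, and SRF-FOXO1 with SRF at least 0.22. SRF-FOXO1 with the other 3 groups ranged from -0.20 to 0.50, so it was not paired with them. SRF-PDGFRB was not paired either. Its replicate 2 had r of -0.39 with SRF replicate 2 and 0.52 with SRF replicate 3, and its replicate 1 had 0.27 with SRF replicate 1.

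Members and lists were chosen with earlier results of these data known. Members named were those called, the 2 with the lowest p in each comparison, the 2 with the largest spread in each complex, a set of isoforms and core subunits, and those called with the block; Uqcr11, Atp5j2, Sdhc and Ndufa12 were named after their values were seen.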

Additional observations from a re-analysis of the deposited data

How the results depend on the processing

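Members called in SRF-FOXO1 against pMSCV numbered 1 in edgeR's test, 2 with RLE factors, 3 with a filter of 1 CPM in 3 libraries, 6 in DESeq2 and 0 with only the 2 groups. Of all genes, 0.352% were called lower in edgeR's test and 4.66% in DESeq2, so the count rose together with that share. The share is not given for the other settings or for fits that leave out 1 library, and those counts are not read as results about the members. Leaving out 1 library gave 0 to 2, with 0 without pMSCV replicate 1 or 3 or SRF-FOXO1 replicate 1 or 3 and 2 without pMSCV replicate 2. In all these fits the members called were lower. In SRF-FOXO1 against SRF, 0 became 2 with only the 2 groups (Ndufaf4 and Cycs, with 1.51% of all genes called lower). It became 2 in DESeq2 (Ndufb3 and Uqcrq, with 3.97% of all genes called). The test among the 6 groups went from 0 to 3 in DESeq2, where 4.22% of all genes were called. Why the counts moved was not tested.

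With replicate number as a block in 17 libraries, 4 members were called in SRF-FOXO1 against pMSCV (Uqcrq, Atp5d, Ndufs7 and Cox4i1), 4.4% of members against 3.33% of all genes called lower, although these groups did not pair. The block in 12 libraries gave 3 in SRF-RELA against pMSCV and 1 in the test among the 4 groups, where the same libraries without it, chosen after seeing the data, gave 0. The block in SRF-FOXO1 and SRF alone, also chosen after seeing the data, gave 1 (Ndufaf4), where these 2 groups without it gave 2. The block changed no other count of members called. The 25 members called for replicate number (51.2% of all genes) became 15 with the 15 libraries of the groups with 3, and 13 to 31 when 1 library was left out (13 without SRF-RELA replicate 2, 16 without SRF-RELA replicate 3). The share of all genes called in these further fits is not given.

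The member median against pMSCV ran from -0.18 to -0.10 in SRF-ICA1L, from -0.238 (without SRF-PDGFRB replicate 2) to -0.0905 (without replicate 1) in SRF-PDGFRB, and from -0.223 (without SRF-RELA replicate 1) to -0.0292 (without replicate 2) in SRF-RELA when 1 library was left out. Against SRF it ran from -0.144 to -0.0627 in SRF-FOXO1, from -0.0576 to 0.0124 in SRF-ICA1L, from -0.117 to -0.0011 in SRF-PDGFRB and from -0.0944 to 0.0565 in SRF-RELA. Members at an unadjusted p under 0.05 in SRF-FOXO1 against pMSCV numbered 10 to 22. No result in any setting reversed a call. Counting error is widest for the 4 members with under 10 counts in some library.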

Other observations

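Some genes near Ndufb7 on chromosome 8 were examined after the Ndufb7 values were seen. Scoc, which lies at 83430084 to 83458391, was called higher in SRF-FOXO1 against pMSCV (log2 fold change 1.29, SE 0.21, adjusted p = 0.0336, edgeR, quasi-likelihood). In that comparison 0.359% of all genes were called higher. Tecr, whose annotated 3′ end faces that of Ndufb7 from the opposite strand, had 0.85 (SE 0.36, adjusted p = 0.195), and Ptger1 had 1.83 (SE 0.60, adjusted p = 0.113). Ddx39a and Adgre5, which lie farther away, had 0.03 and -0.26.

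Atp5d and Ndufs7 lie 103 kb apart on chromosome 10. Of the 30 other genes in the table from 200 kb before Atp5d to 200 kb after Ndufs7, 24 had a negative log2 fold change in SRF-FOXO1 against pMSCV, with a median of -0.34. At an unadjusted p under 0.05, 9 were lower, against 10.6% of all genes, and 0 higher, against 10.3%, and edgeR's quasi-likelihood test called 0 after adjustment. Of all genes, 49.9% had a negative estimate in this comparison. The lean of the 30 genes was not confined to SRF-FOXO1. Against pMSCV, SRF-RELA had 26 of them below 0 (median -0.19) and SRF had 21 (-0.14). For SRF-PDGFRB the number was 24 (-0.24), while SRF-ICA1L had 22 (-0.18). These comparisons share the same pMSCV libraries.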
